A study of Homo sapiens with 12 samples.

Results

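The genes described here are the cadherins and catenins of the adherens junction, the contact by which epithelial cells hold on to their neighbours. The 9 members are CDH1, CDH2, CDH3, CDH6, CDH11, CDH16, CTNNA1, CTNNB1 and CTNND1, out of 19775 genes with a probe set of their own. They were named with earlier results of these data known. Every probe set that the array's annotation assigns to these symbols was taken, which gave 28 probe sets. Of these, 24 carried only the member's symbol and 4 carried CTNND1 together with the read-through gene TMX2-CTNND1. At gene level each member was read from its own probe set with the highest mean. A gene was tested if its log2 value exceeded 4 in at least 3 arrays, and 7 of the 9 members were tested. CDH11 stayed below that level, and CTNND1 had shared probe sets only, which were fitted separately.

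Messenger RNA of HK-2 cells was measured on 12 arrays. HK-2 is a cell line immortalised from human proximal tubule epithelium, the kidney segment that reabsorbs most of the filtrate. Cultures received a compound that the labels call Kbr, at a dose given only as high, or its vehicle, and were sampled after 24 h or 48 h. Treated and control cultures at each of these times made 4 groups, with 3 biological replicates in each. All 12 cultures were the same line, grown with EGF, insulin and hydrocortisone in the medium and treated near confluence. The programme aimed at finding signatures of toxicity in this line.

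Classical cadherins span the membrane, and their outer repeats bind cadherins of the next cell in the presence of calcium. Inside the cell, p120-catenin (CTNND1) binds the part next to the membrane and keeps the cadherin at the surface, while beta-catenin (CTNNB1) binds the tail and recruits alpha-catenin (CTNNA1), the link to actin. Beta-catenin also acts in the nucleus as the coactivator of TCF factors in Wnt signalling, and its free pool is destroyed through a complex built on AXIN and APC. In the kidney, proximal tubule cells carry mainly N-cadherin (CDH2) and cadherin-6 (CDH6), more distal segments carry E-cadherin (CDH1), and cadherin-16 (CDH16) is known as the kidney-specific cadherin.

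RefSeq's table for the GRCh38.p14 assembly held promoter windows for 3 of the 9 members, CDH2, CTNNB1 and CTNNA1. The 250 bases before the start are shown for CDH2, which fell at 48 h, and for its partner CTNNB1, whose probe sets disagreed, so that both can be read beside the values. Capitals mark the GC box (GGGCGG, or CCGCCC on the other strand) and the CCAAT box (CCAAT, or ATTGG on the other strand). The CDH2 window is chr18:28177131-28177380 on the minus strand and the CTNNB1 window is chr3:41199255-41199504 on the plus strand.
CDH2: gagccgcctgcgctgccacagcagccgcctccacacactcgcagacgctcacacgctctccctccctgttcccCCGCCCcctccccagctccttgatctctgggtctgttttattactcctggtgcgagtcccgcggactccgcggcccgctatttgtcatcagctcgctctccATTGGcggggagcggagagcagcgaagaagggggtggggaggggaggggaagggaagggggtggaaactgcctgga
CTNNB1: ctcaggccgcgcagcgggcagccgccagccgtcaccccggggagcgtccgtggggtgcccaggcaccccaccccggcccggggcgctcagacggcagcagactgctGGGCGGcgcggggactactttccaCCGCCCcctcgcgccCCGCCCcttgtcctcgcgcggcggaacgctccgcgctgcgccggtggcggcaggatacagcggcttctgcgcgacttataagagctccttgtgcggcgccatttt

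The CDH2 window held 1 GC box, 177 bases before the start, and 1 CCAAT box, 76 bases before it. The CTNNB1 window held 3 GC boxes, at 144, 120 and 105 bases before the start, and 0 CCAAT boxes. Neither window held CAGGTG, the letters read by repressors of the Snail and ZEB families, on either strand. Neither held any CANNTG, the wider pattern of which CAGGTG is 1 case. Among 35116 such windows, 42.6% held a GC box, 32% a CCAAT box, 17.5% CAGGTG and 61.8% a CANNTG. These are matches of letters within a window and describe no binding.

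The labelled cell type was only partly borne out by markers. EPCAM, a surface marker of epithelium, lay between 12.73 and 13.45 on the log2 scale in all arrays, and all 5 general epithelial markers passed the level of 4. Of 16 measured proximal tubule markers only 3 passed (SLC3A1, PAX8 and GATM), and the endocytic receptors LRP2 (at most 2.62) and CUBN (at most 2.11) were at the floor. Of 10 fibroblast markers 4 passed (COL1A1, DCN, LUM and ACTA2), while COL3A1 (at most 2.90) and PDGFRB (at most 2.52) were at the floor. The proximal tubule markers' summed linear level was 2250 to 2447 in control and 2402 to 2959 in Kbr arrays at 24 h, and 2632 to 3197 against 2712 to 3282 at 48 h, so the groups overlapped. PAX8, at 10.53 to 11.54, weighed most in this sum. Within that list SLC3A1 fell by 1.80 (limma adjusted p = 0.00138) and GATM fell by 0.91 (limma adjusted p = 0.00152) at 24 h, while PAX8 rose by 0.55 (limma adjusted p = 0.0188). At 48 h the log2 fold changes were -2.55 for SLC3A1 (limma adjusted p = 3.31e-05), -1.51 for GATM (limma adjusted p = 1.37e-05) and 0.56 for PAX8 (limma adjusted p = 0.00877). The fibroblast markers' summed linear level was 5373 to 7640 in control arrays and 2822 to 3730 in Kbr arrays at 24 h, and 5050 to 5290 against 1234 to 1640 at 48 h. The epithelial sum was 25211 to 29984 against 18672 to 21752 at 24 h and 22715 to 28113 against 17865 to 20108 at 48 h, although KRT18 rose by 0.43 at 48 h (limma adjusted p = 0.0260). Markers of distal and collecting segments passed for 3 of 11, with sums of 551 to 715 in control against 376 to 400 in Kbr arrays at 24 h and 785 to 971 against 251 to 319 at 48 h. Of these 3, SLC12A1 lay around the cutoff (3.86 to 4.19), and AQP3 passed only through control arrays, with Kbr arrays at 3.33 to 3.93. SCNN1A lay between 7.40 and 9.57 in all arrays. Endothelial markers passed for 1 of 8 and leukocyte markers for 0 of 6. The control probe sets for 18S ribosomal RNA read 0.49 higher with Kbr at 24 h and 0.51 higher at 48 h on the log2 scale, and those for 28S 0.38 and 0.46 higher. The fibroblast, epithelial and distal sums and the ribosomal signals moved with the same contrast as the cadherins below, and their part in the results was not tested. Kbr 48 h replicate 3 lay farthest from its group's means, with a root mean square deviation of 0.290 over genes against at most 0.228 in the other arrays. In bulk RNA, fewer cells with a given transcript and less transcript per cell cannot be told apart.

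After 24 h of Kbr, 4 of the 7 tested members fell and 0 rose, and all 4 were cadherins: CDH1, CDH3, CDH6 and CDH16. After 48 h, 5 of 7 fell, CDH2 having joined them, and 0 rose. Alpha-catenin and the main beta-catenin probe set were called at neither time. Over all 10574 genes tested, 32.4% were called at 24 h (20.0% lower and 12.4% higher) and 59.6% at 48 h (32.8% lower and 26.9% higher). Calls are limma's moderated test at a Benjamini-Hochberg adjusted p under 0.05. The median log2 fold change of the tested members was -1.06 at 24 h and -2.12 at 48 h, against -0.06 for all tested genes at either time. Arrays of Kbr and control did not overlap for 5 of 7 members at 24 h and 6 of 7 at 48 h, against 51.6% and 62.8% of all genes. With the replicate number as a block, the lower calls came to 6 of 7 at 24 h (29.4% of all genes) and 5 of 7 at 48 h (38.1%).

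**Figure D1:**
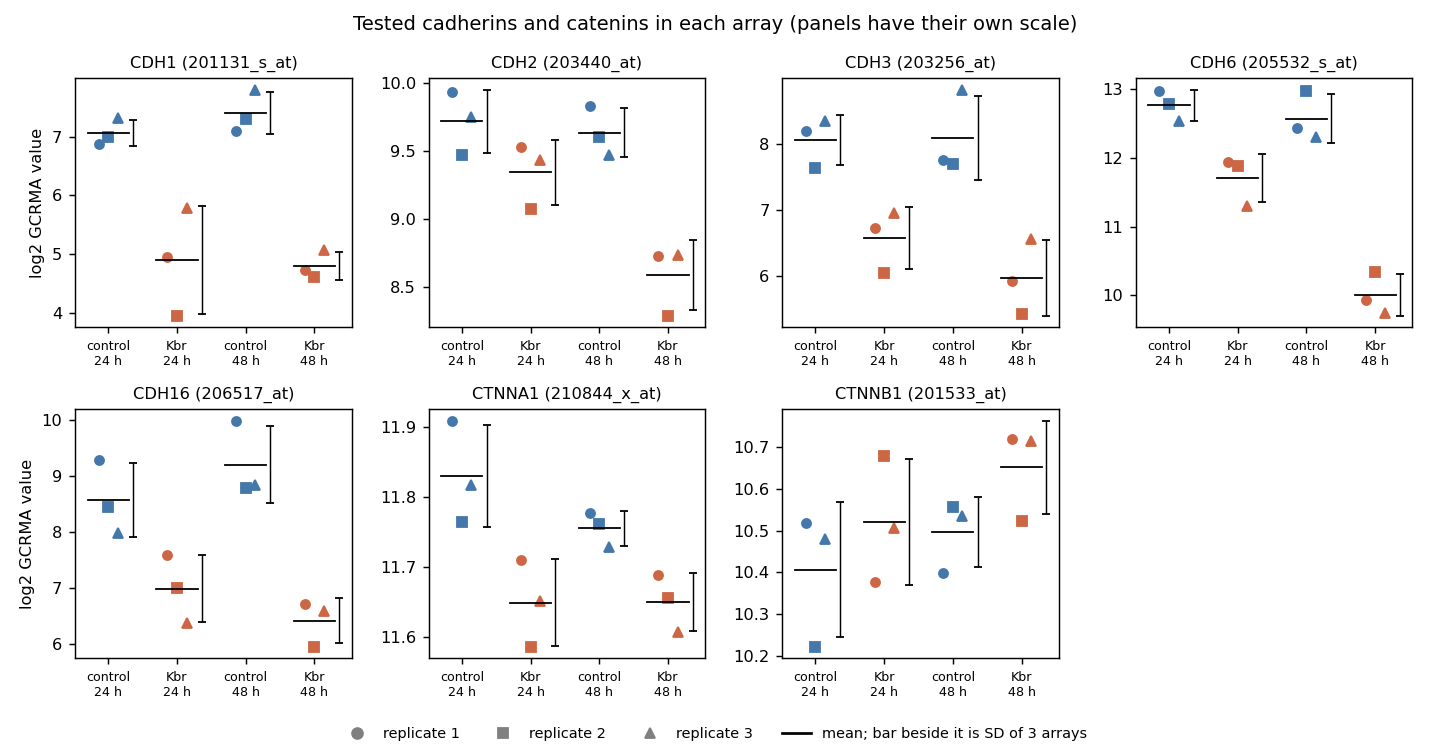
Log2 GCRMA value (y axis, own scale per panel) of each of the 7 tested members in the 12 arrays, by group; symbols are replicates, the line is the mean and the bar the SD of 3 arrays. CDH1, CDH3, CDH6 and CDH16 sit lower in every Kbr array than in any control array of the same time, CDH2 separates at 48 h, and the beta-catenin panel spans under 0.5 log2 units with overlapping groups.

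E-cadherin (CDH1), the cadherin that defines most epithelial sheets, showed the largest fall of the members at 24 h. Its log2 value was 6.88, 7.00 and 7.31 in the control arrays at 24 h and 4.96, 3.95 and 5.78 in the Kbr arrays. At 48 h the control arrays read 7.11, 7.30 and 7.80 and the Kbr arrays 4.72, 4.60 and 5.07. All 6 Kbr arrays lay below all 6 control arrays, with the widest spread at Kbr 24 h (SD 0.92, n = 3). The log2 fold change was -2.17 (SE 0.37, limma adjusted p = 0.00173), a 4.49-fold lower level, at 24 h. At 48 h it was -2.60 (SE 0.37, limma adjusted p = 0.000136), a 6.08-fold lower level. Kbr 24 h replicate 2 read 3.95, below the level of 4, and whether such low values limit the CDH1 fold was not tested. At 24 h only 0.435% of tested genes had a fold change at or below that of CDH1. Its second probe set, 201130_s_at, stayed at 2.15 to 2.23 in all arrays, below the level tested, so 1 probe set carries the E-cadherin result.

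P-cadherin (CDH3), the classical cadherin of basal epithelial layers and the neighbour of CDH1 on chromosome 16, fell at both times. Between the starts of these 2 genes the reference annotation lists 0 other protein-coding genes. CDH3 read 8.19, 7.63 and 8.35 in control and 6.72, 6.04 and 6.96 in Kbr arrays at 24 h. At 48 h it read 7.76, 7.69 and 8.82 in control and 5.92, 5.41 and 6.56 in Kbr arrays. Groups did not overlap at either time, and replicate 2 was the lowest array in all 4 groups. The log2 fold change was -1.48 (SE 0.37, limma adjusted p = 0.0119) at 24 h and -2.12 (SE 0.37, limma adjusted p = 0.000567) at 48 h, or 2.80-fold and 4.36-fold lower.

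Cadherin-16 (CDH16), an atypical cadherin with a short cytoplasmic tail that lacks the catenin-binding region, is a marker of kidney tubules. It read 9.28, 8.45 and 7.99 in control and 7.58, 7.00 and 6.39 in Kbr arrays at 24 h. The 48 h arrays read 9.98, 8.77 and 8.84 in control and 6.71, 5.96 and 6.60 in Kbr arrays. The groups were separate at both times although control replicate 1 stood above the other controls. The log2 fold change was -1.58 (SE 0.42, limma adjusted p = 0.0157) at 24 h and -2.77 (SE 0.42, limma adjusted p = 0.000214) at 48 h, a 6.84-fold lower level and the largest fall at gene level among the members at 48 h. In the main fit, which takes no pairing, the 24 h call rested on single arrays. Its adjusted p rose to 0.0644 without replicate 3 of the Kbr 24 h group and to 0.0673 without replicate 1 of the 24 h controls. It was 0.0535 when no expression filter was set. Within the 3 pairs of equal replicate number, Kbr minus control was -1.69, -1.45 and -1.60 at 24 h. With the replicate block, which called 48.0% of all genes, the 24 h limma adjusted p was 0.000845.

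Cadherin-6 (CDH6), the type II cadherin of the developing and adult proximal tubule, fell at 24 h and fell further at 48 h. Its main probe set, 205532_s_at, read 12.98, 12.79 and 12.53 in control and 11.94, 11.88 and 11.30 in Kbr arrays at 24 h. At 48 h it read 12.43, 12.98 and 12.30 in control and 9.94, 10.34 and 9.74 in Kbr arrays. The Kbr arrays at 48 h lay below the Kbr arrays at 24 h, which in turn lay below every control array. The log2 fold change was -1.06 (SE 0.23, limma adjusted p = 0.00614) at 24 h, or 2.08-fold lower. It was -2.57 (SE 0.23, limma adjusted p = 7.00e-06) at 48 h, or 5.92-fold lower.

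CDH6 is read by 6 probe sets, all above the level of 4, which allows a comparison within the gene. In a fit of all 19345 single-symbol probe sets over that level, 5 of the 6 fell at both times. Over all such probe sets, 15.3% were called lower at 24 h and 28.7% at 48 h. Their log2 fold changes ran from -1.34 to -0.76 at 24 h and from -2.88 to -2.14 at 48 h. In 210602_s_at, the probe set with the largest fall at 24 h, control arrays read 12.88, 12.95 and 12.61 and Kbr arrays 11.46, 11.60 and 11.35 at 24 h. At 48 h its control arrays read 12.41, 12.60 and 12.26 and its Kbr arrays 9.22, 9.86 and 9.86. The exception, 232631_at, lay between 4.41 and 5.58 in all arrays, with log2 fold changes of -0.28 (limma adjusted p = 0.250) and -0.22 (limma adjusted p = 0.309). Probe sets of 1 gene share its transcripts and are not replicates.

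N-cadherin (CDH2), the classical cadherin of proximal tubule contacts and of mesenchymal and neural cells, fell at 48 h. The main probe set, 203440_at, read 9.93, 9.47 and 9.75 in control and 9.53, 9.07 and 9.43 in Kbr arrays at 24 h, where the groups overlapped. The 48 h arrays read 9.83, 9.60 and 9.47 in control and 8.73, 8.29 and 8.74 in Kbr arrays, where they did not. The 24 h log2 fold change was -0.37 (SE 0.18, 95% interval -0.76 to 0.01, limma adjusted p = 0.127). The replicate numbers pair the arrays, and at 24 h Kbr was lower by 0.41, 0.40 and 0.31 in the 3 pairs. With the replicate block the 24 h adjusted p was 0.0170. The 48 h log2 fold change was -1.05 (SE 0.18, limma adjusted p = 0.000411), or 2.07-fold lower. The other probe set, 203441_s_at, showed a smaller fall at 48 h, -0.51 (SE 0.17, limma adjusted p = 0.0233), and -0.35 at 24 h (limma adjusted p = 0.149).

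Cadherin-11 (CDH11), the type II cadherin of mesenchymal and bone-forming cells, was at the floor. Its 4 probe sets lay between 2.21 and 2.67 in all 12 arrays, so it entered no test. Of 14 other cadherins measured outside the members, only CDH24, a type II cadherin, passed the level of 4. Its log2 fold change was 0.27 (limma adjusted p = 0.330) at 24 h and 0.29 (limma adjusted p = 0.239) at 48 h.

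**Figure D2:**
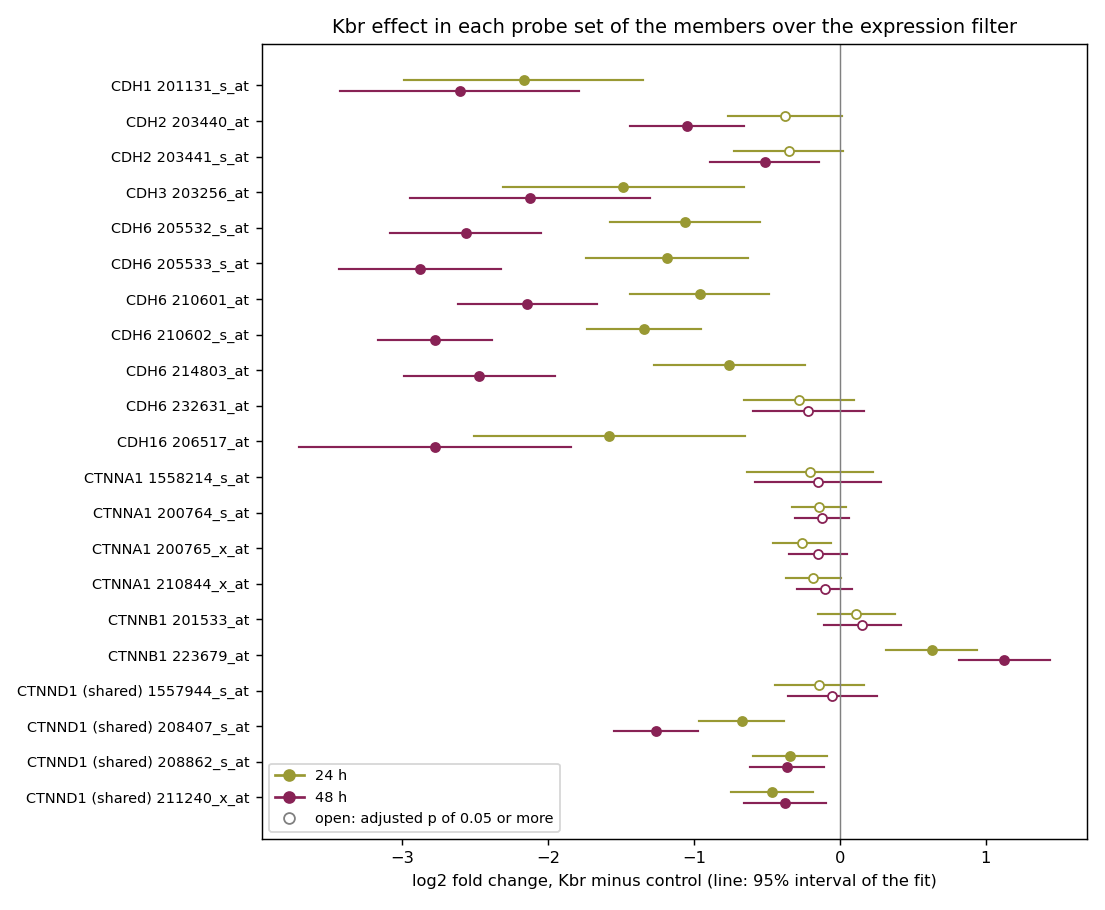
Log2 fold change of Kbr minus control (x axis) for each member probe set over the level tested, at 24 h and 48 h; lines are 95% intervals of the fit and open circles have an adjusted p of 0.05 or more. The cadherin probe sets lie left of zero, with 232631_at of CDH6 near it, the alpha-catenin probe sets lie close to zero, and 223679_at of CTNNB1 lies to the right at 0.63 and 1.13.

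Alpha-catenin (CTNNA1), the actin link of the cadherin complex, was called at neither time. Its main probe set, 210844_x_at, read 11.91, 11.76 and 11.82 in control and 11.71, 11.59 and 11.65 in Kbr arrays at 24 h. The 48 h arrays read 11.78, 11.76 and 11.73 in control and 11.69, 11.66 and 11.61 in Kbr arrays. The groups were separate at both times, by small margins. The log2 fold change was -0.18 (SE 0.08, limma adjusted p = 0.107) at 24 h and -0.10 (SE 0.08, 95% interval -0.28 to 0.07, limma adjusted p = 0.282) at 48 h. At 24 h the adjusted p was 0.0398 with the replicate block and 0.0222 with no expression filter. All 4 of its probe sets over the level tested had fold changes between -0.26 and -0.10 at both times, and in the fit of single probe sets none of the 4 was called. The one nearest to a call was 200765_x_at at 24 h (-0.26, limma adjusted p = 0.0529, and 0.0149 with the block).

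Beta-catenin (CTNNB1), which binds the cadherin tail and serves Wnt signalling, gave different answers in its 2 detected probe sets. In 201533_at, the one with the higher mean, control arrays read 10.52, 10.22 and 10.48 and Kbr arrays 10.38, 10.68 and 10.51 at 24 h. At 48 h they read 10.40, 10.56 and 10.53 in control and 10.72, 10.52 and 10.71 in Kbr cultures. The groups overlapped at both times, and Kbr was lower in 1 of 3 pairs at each. The log2 fold change was 0.11 (95% interval -0.14 to 0.37, limma adjusted p = 0.478) at 24 h and 0.16 (95% interval -0.10 to 0.41, limma adjusted p = 0.271) at 48 h. These intervals leave room for changes of up to about 0.4 log2 units upward.

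The other beta-catenin probe set, 223679_at, rose. It read 5.96, 6.17 and 6.18 in control and 6.76, 6.98 and 6.46 in Kbr arrays at 24 h. At 48 h it read 5.68, 5.41 and 5.70 in control and 6.81, 6.64 and 6.72 in Kbr arrays. Every Kbr array lay above every control array. In the fit of single probe sets the log2 fold change was 0.63 (SE 0.14, limma adjusted p = 0.00849) at 24 h and 1.13 (SE 0.14, limma adjusted p = 6.6e-05) at 48 h. Over all single probe sets, 11.7% were called higher at 24 h and 27.3% at 48 h. The stretch of transcript that each probe set reads was not analysed here. With the mean of all CTNNB1 probe sets as its level, the 48 h change was 0.40 (limma adjusted p = 0.00636), so the beta-catenin call depended on the probe set.

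The p120-catenin gene (CTNND1) is read only by 4 probe sets that also match TMX2-CTNND1, so a value cannot be assigned to 1 of the 2 transcripts. In 208407_s_at control arrays read 8.55, 8.57 and 8.54 and Kbr arrays 7.99, 7.90 and 7.75 at 24 h. At 48 h control arrays read 8.44, 8.76 and 8.57 and Kbr arrays 7.59, 7.14 and 7.25. The groups were separate at both times. In a fit of all 20294 symbol-bearing probe sets over the level tested, chosen after the shared annotation was seen, its log2 fold change was -0.67 (SE 0.13, limma adjusted p = 0.00427) at 24 h. At 48 h it was -1.26 (SE 0.13, limma adjusted p = 2.1e-05). In that fit 15.2% of all probe sets were called lower at 24 h and 28.5% at 48 h.

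The remaining shared probe sets moved less. 211240_x_at fell by 0.46 (limma adjusted p = 0.0209) at 24 h and 0.38 (limma adjusted p = 0.0261) at 48 h. 208862_s_at fell by 0.34 (limma adjusted p = 0.0490) and 0.37 (limma adjusted p = 0.0191). 1557944_s_at had fold changes of -0.14 and -0.05 on the log2 scale (limma adjusted p = 0.478 and 0.775). At each time 3 of the 4 shared probe sets were therefore lower with Kbr, by different amounts.

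**Figure D3:**
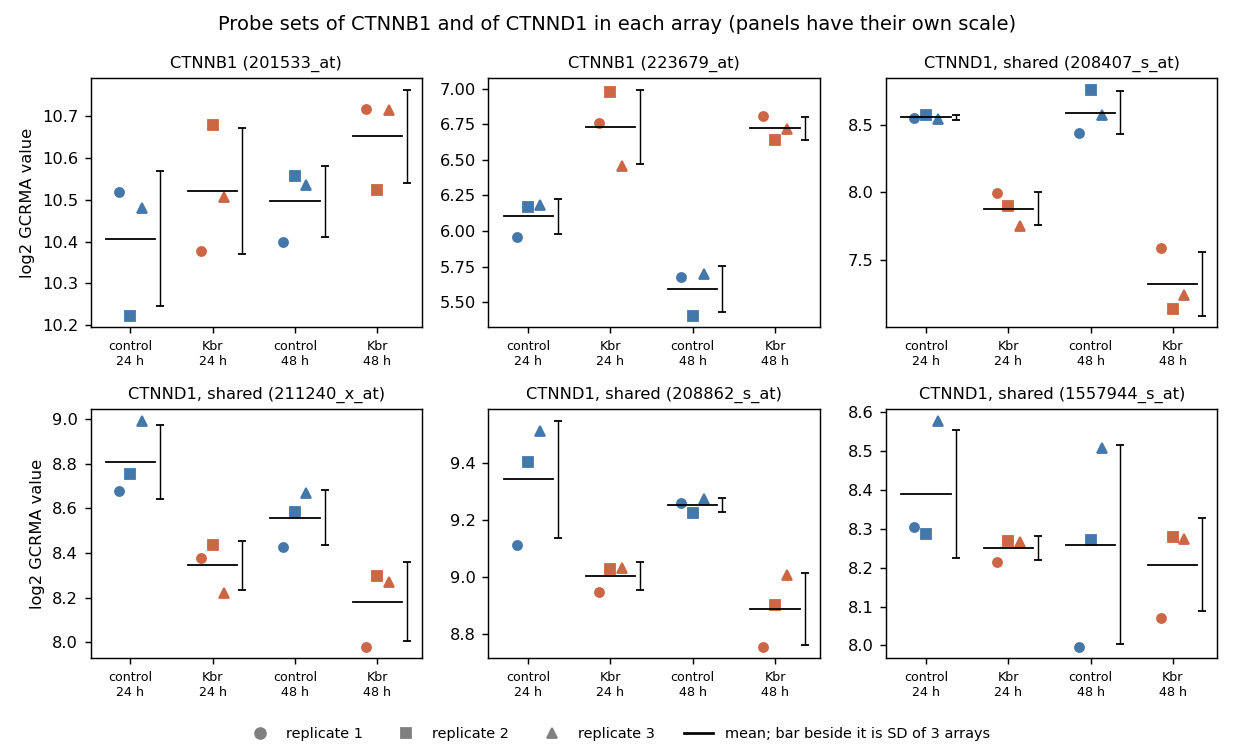
Log2 GCRMA value (y axis, own scale per panel) of the 2 detected CTNNB1 probe sets and the 4 CTNND1 probe sets shared with TMX2-CTNND1, in each array by group; symbols are replicates, lines means and bars the SD of 3 arrays. The CTNNB1 panels differ, with overlap in 201533_at and separate groups in 223679_at, and among the shared probe sets 208407_s_at shows the widest separation.

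A further question was whether the Kbr effect grew between 24 h and 48 h. These comparisons use the same arrays as those above, so each is given by its own values. Of the 7 tested members, 1 changed its effect, CDH6, with a difference of -1.51 between the 48 h and 24 h log2 effects (SE 0.33, 95% interval -2.23 to -0.78, limma adjusted p = 0.0298). Over all tested genes 5.58% changed their effect, 3.49% toward lower. With the replicate block 3 members changed, CDH6 (adjusted p = 0.00343), CDH2 (-0.67, adjusted p = 0.0170) and CDH16 (-1.19, adjusted p = 0.0380), against 20.2% of all genes. In 203441_s_at of CDH2 the difference was -0.16 (adjusted p = 0.563 with the block). For CDH1 the difference was -0.44 (95% interval -1.59 to 0.72, limma adjusted p = 0.665), for CDH3 it was -0.64 (limma adjusted p = 0.507), and for the main probe set of CTNNB1 it was 0.04 (limma adjusted p = 0.908).

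In the main fit, which takes no pairing, leaving out any 1 of several arrays lost the CDH6 call on that difference. Without Kbr 24 h replicate 1 its adjusted p was 0.0745, and without Kbr 24 h replicate 2 it was 0.0692. Without Kbr 48 h replicate 1 it was 0.0668. Leaving out control 24 h replicate 2 or 3 gave 0.0552 and 0.0794, and leaving out control 48 h replicate 1 or 2 gave 0.0578 and 0.0608. With no expression filter it was 0.0696. The direction was downward in each of these fits, and with 1 array left out the difference ranged from -1.71 to -1.30. With the replicate block, which called 20.2% of all genes for this comparison, the limma adjusted p was 0.00343.

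Within the Kbr cultures, 2 of 7 members were lower at 48 h than at 24 h, against 17.1% of all genes called and 10.0% called lower. CDH6 differed by -1.70 (SE 0.23, limma adjusted p = 0.00189) and CDH2 by -0.76 (SE 0.18, limma adjusted p = 0.0168). Kbr arrays of the 2 times did not overlap for these 2 members, against 34.5% of all genes. In fits without the block, the CDH2 call was lost without Kbr 24 h replicate 1 (adjusted p = 0.0641), Kbr 24 h replicate 3 (0.0609) or Kbr 48 h replicate 2 (0.0713). It was also lost with only the Kbr arrays in the fit (0.0529). With the replicate block the limma adjusted p for CDH2 was 0.00147. In the other CDH2 probe set, 203441_s_at, the difference was -0.33 (limma adjusted p = 0.215, and 0.0823 with the block). CDH3 differed by -0.61 (limma adjusted p = 0.293, and 0.0183 with the replicate block, which called 33.8% of all genes). CDH1 differed by -0.10 (95% interval -0.92 to 0.72, limma adjusted p = 0.895).

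Between control cultures at 48 h and 24 h, limma called 0 of 7 members, against 4.03% of all genes, and 0 members had an unadjusted p under 0.05. The replicate block also called 0 members, against 20.8% of all genes. In the main probe sets no member's control groups were separate, against 26.9% of all genes. Among other single-symbol probe sets they were separate in 210602_s_at and 232631_at of CDH6, 200765_x_at of CTNNA1 and 223679_at of CTNNB1. The share over all single probe sets was not computed. The widest differences were 0.63 for CDH16 (limma adjusted p = 0.419) and 0.34 for CDH1 (limma adjusted p = 0.634). Among single probe sets, 223679_at of CTNNB1 read 0.51 lower in control cultures at 48 h (limma adjusted p = 0.0853, and 0.0435 with the replicate block).

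Genes that dock on the cadherin and catenin complex were described from a list of 31 junction partners, of which 24 were tested. At 24 h 8 of the 24 fell and 1 rose, and at 48 h 13 fell and 3 rose. That is 37.5% and 66.7% called, against 32.4% and 59.6% of all genes, with medians of -0.43 and -0.55. With the replicate block 14 fell and 1 rose at 24 h, where the block called 48.0% of all genes. Plakoglobin (JUP), the close relative of beta-catenin in junctions and desmosomes, read 9.39, 8.60 and 9.31 in control and 7.78, 7.27 and 7.72 in Kbr arrays at 24 h. That is a fall of 1.51 (SE 0.20, limma adjusted p = 0.000543), and at 48 h it fell by 1.11 (SE 0.20). LIMA1, an actin-binding protein that associates with alpha-catenin, fell by 1.34 (SE 0.12) at 24 h. PLEKHA7, which binds p120-catenin, was called lower at both times, but it passed the filter only through control arrays. It read 3.76 to 4.20 in control and 2.91 to 3.21 in Kbr arrays at 24 h, and 3.98 to 4.79 against 2.22 to 2.97 at 48 h. With the Kbr arrays near the floor, no fold is given. The receptor phosphatases PTPRF and PTPRM, which sit at cell contacts, fell by 1.33 (SE 0.26) and 1.29 (SE 0.14) at 48 h. The 3 partners that rose at 48 h were AJUBA by 1.14 (SE 0.26), ZYX by 1.00 (SE 0.29) and CBLL1 by 0.84 (SE 0.13). CBLL1 was also the 1 that rose at 24 h, by 0.73 (SE 0.13).

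Regulators known for repressing or sustaining E-cadherin made a list of 18, of which 8 were tested. At 24 h 2 fell and 0 rose, and at 48 h 3 fell and 2 rose. That is 25.0% and 62.5% called, close to the 32.4% and 59.6% of all genes. The medians were -0.03 and -0.47. Among genes that sustain epithelial programmes, GRHL1 is counted as lower at both times. It passed the filter through its control arrays, and its Kbr arrays alone would not have passed. At 24 h it read 5.29, 4.87 and 5.46 in control and 3.70, 3.74 and 4.25 in Kbr arrays. At 48 h it read 4.23 to 5.46 against 3.58 to 4.25, where the groups overlapped. The splicing factor ESRP1 was called lower at both times, with 4.68 to 5.00 in control against 3.88 to 4.50 in Kbr arrays at 24 h and 4.87 to 5.40 against 3.85 to 4.54 at 48 h. Kbr arrays of both genes reached below the level of 4, so no fold is given. ZEB1, a repressor of E-cadherin, rose at 48 h, with 7.40, 7.30 and 7.46 in control and 8.68, 8.41 and 7.78 in Kbr arrays. Its log2 fold change was 0.91 (SE 0.19, limma adjusted p = 0.00205), after 0.18 at 24 h (limma adjusted p = 0.509). KLF4, a factor known for activating E-cadherin in epithelia, rose by 1.78 (SE 0.28, limma adjusted p = 0.000282) at 48 h. SNAI1, another repressor, lay close to the level of 4, with 4.02 to 4.05 in control and 4.15 to 4.42 in Kbr arrays at 48 h. It was not called in the main fit (limma adjusted p = 0.0697, and 0.0469 with the replicate block), and no fold is given. In the same list TCF3 went the other way from ZEB1 at 48 h, with a log2 fold change of -0.48 (limma adjusted p = 0.0245). TWIST1 had -0.47 (limma adjusted p = 0.0883, and 0.00756 with the block).

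The machinery that controls beta-catenin's free pool made a list of 18, of which 16 were tested. At 24 h 2 rose and 1 fell, 18.8% called against 32.4% of all genes, and at 48 h 5 rose and 7 fell, 75.0% against 59.6%. LRP5 is counted as lower at 48 h, but it passed the filter through its control arrays, and its Kbr arrays alone would not have passed. Its 48 h arrays read 3.80 to 4.72 in control and 2.99 to 3.42 with Kbr. With the replicate block 3 rose and 4 fell at 24 h, against 48.0% of all genes called either way. FBXW11, a ubiquitin ligase subunit that recognises phosphorylated beta-catenin, rose by 0.50 (SE 0.10) at 24 h, and CSNK1A1, the kinase that primes beta-catenin for destruction, rose by 0.35 (SE 0.09). DVL3, which relays the Wnt signal, fell by 0.65 (SE 0.20) at 24 h and 1.58 (SE 0.20) at 48 h. At 48 h CSNK1E, a casein kinase of the Wnt pathway, rose by 1.50 (SE 0.22) and TNKS, which marks AXIN for destruction, fell by 1.25 (SE 0.18). Members of this list thus changed in both directions, with medians of -0.01 and -0.12.

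TCF factors and textbook targets of beta-catenin made a list of 20, of which 10 were tested. At 24 h 1 rose and 2 fell, and at 48 h 1 rose and 3 fell, that is 30.0% and 40.0% called against 32.4% and 59.6% of all genes. TNFRSF19, a receptor induced by Wnt signalling, fell at both times. Its log2 fold change was -2.47 (SE 0.22, limma adjusted p = 7.3e-05) at 24 h. At 48 h its Kbr arrays read 3.83, 3.61 and 3.61, below the level of 4, against 6.67, 7.41 and 6.40 in control, and no fold is given. ZNRF3, a membrane ubiquitin ligase that removes Wnt receptors, rose by 0.84 (SE 0.16) and 0.59 (SE 0.16) at the 2 times. Its relative RNF43 is counted as lower at 48 h, but its Kbr arrays read 4.19 to 4.20 at both times and its controls 4.17 to 4.21 at 24 h. The difference came with control arrays of 4.91, 4.47 and 4.40 at 48 h. TCF7L2, a TCF factor, fell by 0.35 (SE 0.09) at 24 h. TCF4, a gene separate from TCF7L2, stands in this list and in that of the E-cadherin regulators, and Kbr against control was called for it at neither time.

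**Figure D4:**
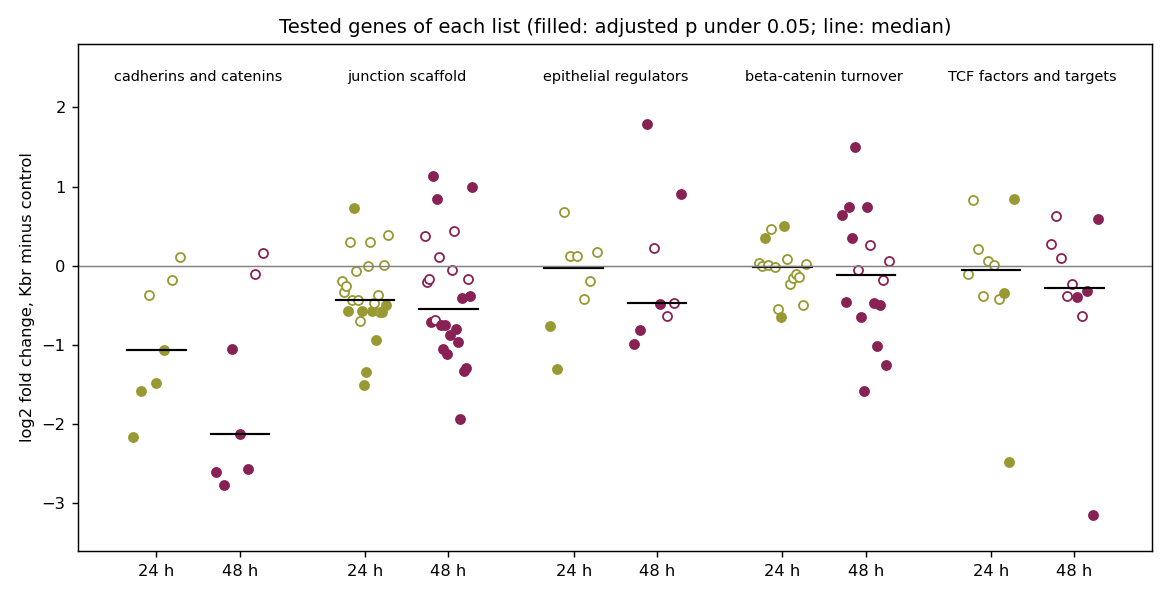
Log2 fold change of Kbr minus control (y axis) for the tested genes of the cadherins and catenins and of 4 related lists, at 24 h and 48 h; filled points have an adjusted p under 0.05 and lines are medians. The member medians of -1.06 and -2.12 stand beside -0.43 and -0.55 for junction partners, and the beta-catenin turnover list spreads to both sides of zero.

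Genes whose profile over the 12 arrays was most like that of a member were ranked by the root mean square difference of log2 values, each centred on its own mean. For CDH1 these were PLLP (0.308), SLCO5A1 (0.383) and RCAN3 (0.412), against a median of 1.26 over all tested genes. For CDH2 they were CYBA (0.130), GALNT14 (0.136) and MSRB3 (0.136), against a median of 0.534. For CDH6 they were HGSNAT (0.197), the protocadherin PCDH7 (0.269) and TP53INP1 (0.290), against a median of 1.12. PCDH7, itself an adhesion molecule of the wider cadherin family, had log2 fold changes of -1.29 at 24 h and -2.44 at 48 h. The ranking compares shapes over the same 12 arrays and is a description.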

How the data were processed

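GCRMA, which corrects probe signals for background binding, normalizes arrays and summarises probes into probe sets, is the tool named in the submitters' processing notes; its log2 values were deposited by the authors for all 12 arrays, with no version given. Total RNA was isolated with a column kit and labelled as biotinylated cRNA, per the labels' protocols. No detection calls were used. The number of arrays, 3 per group, limits the precision. Of 54675 probe sets, 41091 carried 1 symbol in the platform's annotation, 1801 several, 11721 none, and 62 were controls; 0 symbols needed updating against RefSeq's gene table.

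Each of 19775 genes was represented by its single-symbol probe set with the highest mean, and 10574 genes over log2 4 in at least 3 arrays were tested. One model over the 12 arrays, fitted with limma's lmFit and eBayes (version 3.58.1, under R 4.3.3), gave two-sided tests with 8 residual degrees of freedom and 2.87 from the prior, with log2 fold changes, moderated SEs and p-values, adjusted by Benjamini-Hochberg over all genes of a comparison. Group errors are SD of 3 arrays. Single probe sets, and all symbol-bearing probe sets for CTNND1, were fitted likewise. The fit was tested on simulated data. Tables and plots used Python 3.11.15, pandas 2.3.3 and matplotlib 3.10.9. Promoter windows came from RefSeq.

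Deviations from the group means correlated between 0.232 and 0.633 in the 18 array pairs that share a replicate number and between -0.378 and -0.004 in the 36 other pairs. The labels' numbers thus pair the arrays, and a second fit took them as a block, leaving 6 residual degrees of freedom. Named genes were the members, the 3 called genes that changed most at each time in each related list, the 3 genes most like CDH1, CDH2 and CDH6, and marker genes. SNAI1, TCF3, TWIST1, LRP5, CDH24, AJUBA, ZYX and CBLL1 were added with their values in view. The members and lists were chosen with earlier results of these data known. Alternatives were no filter or log2 over 6, other rules for probe sets, median centring, quantile normalization, a linear offset of 32, a trended and robust prior, only the groups compared, the block, and each array left out.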

Additional observations from a re-analysis of the deposited data

Results flagged for a closer look

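The effect of Kbr on CDH6 differed between the times. The 48 h effect minus the 24 h effect was -1.51 on the log2 scale (SE 0.33, limma adjusted p = 0.0298), tested as an interaction term with Benjamini-Hochberg adjustment over all 10574 genes. With each of the 12 arrays left out in turn the difference ranged from -1.71 to -1.30 and its adjusted p from 0.0279 to 0.0794.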

How the results depend on the processing

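The lower calls of CDH1, CDH3 and CDH6 at 24 h and of the 5 cadherins at 48 h kept their direction in every alternative tried. The count of members called ranged over the fits that left out an array from 3 to 4 at 24 h, was 5 in all of them at 48 h, and ranged from 0 to 1 for the change of effect and from 1 to 2 for Kbr 48 h against 24 h. With the replicate block the members called came to 3 for the change of effect, and member probe sets to 7 against 4 there and to 1 against 0 for control 48 h against 24 h. Under the block the junction partners called came to 15 at 24 h, 5 for the change of effect, 5 for the control cultures over time and 6 for the Kbr cultures over time; the beta-catenin turnover list to 7, 6, 4 and 6; the TCF list to 3 and 5 for the control and Kbr cultures over time; and the E-cadherin regulators to 2 for Kbr over time. The block called 48.0% of all genes at 24 h, 20.2% for the change of effect, 20.8% for control and 33.8% for Kbr over time. With no filter the members' change of effect fell to 0 calls, the regulators at 24 h to 1 and the TCF list for Kbr over time to 1. With a filter at log2 6 the regulators gave 0 calls at 24 h and 3 at 48 h. With only the groups compared, Kbr over time gave 1 member; that setting gives no value for the change of effect, which needs all 4 groups.

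In the fit of single probe sets the CDH6 change of effect was -1.51 in 205532_s_at (limma adjusted p = 0.0326) and -1.69 in 205533_s_at (0.0281). It was -1.43 in 210602_s_at (0.0161) and -1.71 in 214803_at (0.0215). In 210601_at it was -1.18 and not called (0.0523). The called change of effect of CDH6 turned sign in 1 of its probe sets, 232631_at, where it was 0.065. The other turned signs were of uncalled values. For control 48 h against 24 h, CTNNB1 was -0.10 with the mean of its probe sets and -0.51 in 223679_at, CDH6 was 0.35 in 214803_at and with unsuffixed probe sets, and CTNNA1 was 0.017 in 200764_s_at. For Kbr over time, CTNNA1 was -0.041 in 1558214_s_at and CTNNB1 -0.010 in 223679_at. For the change of effect, CTNNB1 was -3.77e-06 after quantile normalization. With an array left out, the change of effect ranged from -0.031 to 0.13 for CTNNB1 and -0.91 to 0.0078 for CDH1, Kbr over time from -0.030 to 0.031 for CTNNA1 and -0.57 to 0.35 for CDH1, and control over time from -0.20 to 0.027 for CDH2, -0.33 to 0.23 for CDH3 and -0.0024 to 0.15 for CTNNB1. The causes were not tested. The Kbr arrays of CDH1 read between 3.95 and 5.78, and whether such low levels limit its fold change was not tested.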
